A study of Homo sapiens with 4 samples.

Results

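The 21 RhoGAP genes of the ARHGAP family that were measured in NUDUL1 lymphoma cells moved in both directions between libraries labelled GNA13-deficient and libraries labelled control. All libraries came from cells with the transduced thromboxane receptor Tbxa2r, treated with its ligand U46619. The differences are therefore between genotypes under this ligand, and untreated cells were not measured. ARHGAP10, ARHGAP18 and ARHGAP21 were 11.5-fold to 18.6-fold lower in the libraries labelled GNA13-deficient, and ARHGAP42, which the table lists under an older symbol, was 17.1-fold lower. ARHGAP11A, a RhoGAP of dividing cells, was 1.77-fold higher, and ARHGAP4, ARHGAP19, ARHGAP25 and ARHGAP27 rose by smaller steps. The family members with the highest level per length in the control libraries, ARHGAP30, ARHGAP4, ARHGAP1 and ARHGAP17, differed by 0.49 or less on the log2 scale.

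Members were all genes whose symbol is ARHGAP, a number and an optional A or B, with a value above 0 in at least 2 of the 4 libraries. The table of 25066 genes held 25 such symbols, and 21 of them met the second condition. The other 4 (ARHGAP8, ARHGAP20, ARHGAP22 and ARHGAP29) were listed at 0 in every library. The table uses older symbols for 10 further ARHGAP genes, found by their Entrez identifiers, and 8 of these could be tested. They are described apart from the members.

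RhoA, Rac1 and Cdc42 are small GTPases, molecular switches that are active when bound to GTP and control the actin cytoskeleton, cell shape, migration and the last step of cell division. Guanine nucleotide exchange factors (RhoGEFs) turn them on, GTPase-activating proteins (RhoGAPs) turn them off by speeding up GTP hydrolysis, and RhoGDI proteins hold them in the cytosol. Gα13, the protein encoded by GNA13, activates RhoA through ARHGEF1, ARHGEF11 and ARHGEF12, and in germinal center B cells it restrains migration and growth.

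NUDUL1 is a human diffuse large B cell lymphoma line of germinal center B cell type. All 4 libraries came from cells with doxycycline-inducible Cas9 and the transduced thromboxane receptor Tbxa2r, which couples to Gα13, and all were treated with 10 nM U46619, a stable thromboxane-A2 mimetic, for 24 h. The 2 control libraries came from cells with a control sgRNA and the 2 GNA13-deficient libraries from cells with a GNA13 sgRNA, with 1 sgRNA per genotype. The Cas9 line was a single-cell clone, and untreated cells were not among the libraries, so the comparison is between genotypes under the ligand. The 2 libraries of each genotype are duplicate treatments according to the labels, and p-values therefore measure only the spread between duplicates.

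Each library held 29209544 to 31537955 mapped reads. GNA13 mRNA itself was 12.46 and 12.45 in the control libraries and 13.10 and 13.11 in those labelled GNA13-deficient (log2 normalized reads), so it was higher, not lower. Cas9 cuts DNA and need not lower the mRNA, so this level does not check the labels, and the directions given here rest on them. All 6 B cell markers checked were expressed in all libraries, and of 6 germinal center B cell markers SERPINA9 was at 0 throughout. BCL6 and LMO2, transcription regulators of germinal center B cells, were lower in the libraries labelled GNA13-deficient, by -2.49 (limma adjusted p = 0.0008) and -3.70 (limma adjusted p = 0.0017), LMO2 thus by about as much as the RhoGAP genes with the large falls. MME, CD38 and MYBL1, the others of this list, did not pass the test. Summed, the list was at 24499.3 to 25456.5 normalized reads in the control libraries and 23541.7 to 24658.3 in the others, which overlap. Across all 16945 genes tested by limma with Benjamini-Hochberg adjustment, 29.7% passed an adjusted p of 0.05, 13.1% higher and 16.6% lower than in the control libraries.

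The promoters of 6 genes are shown first, the 4 with large falls from at least 100 reads (ARHGAP10, ARHGAP18, ARHGAP21 and ARHGAP42) and the 2 mitotic members that rose (ARHGAP11A and ARHGAP19). Each is the first RefSeq window of the gene in GRCh38.p14, from 250 bases before to 50 bases after the transcription start, 5′ to 3′ on the gene's strand. Capitals mark the GC box GGGCGG, the cell cycle element CHR (TTTGAA) and the E2F sites TTTCCCGC, TTTCGCGC, TTTGCCGC and TTTGGCGC, on either strand. The windows lie at chr4:147731838-147732137 (plus strand) for ARHGAP10, chr6:129710128-129710427 (minus strand) for ARHGAP18, chr10:24723172-24723471 (minus strand) for ARHGAP21, chr11:100687038-100687337 (plus strand) for ARHGAP42, chr15:32614894-32615193 (plus strand) for ARHGAP11A and chr10:97292588-97292887 (minus strand) for ARHGAP19.
ARHGAP10: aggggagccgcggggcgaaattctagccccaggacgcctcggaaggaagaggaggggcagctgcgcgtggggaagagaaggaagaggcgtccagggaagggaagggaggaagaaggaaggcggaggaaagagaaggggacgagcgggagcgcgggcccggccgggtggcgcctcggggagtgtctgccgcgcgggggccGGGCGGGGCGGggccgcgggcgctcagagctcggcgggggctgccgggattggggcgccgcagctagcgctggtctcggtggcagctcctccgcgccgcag
ARHGAP18: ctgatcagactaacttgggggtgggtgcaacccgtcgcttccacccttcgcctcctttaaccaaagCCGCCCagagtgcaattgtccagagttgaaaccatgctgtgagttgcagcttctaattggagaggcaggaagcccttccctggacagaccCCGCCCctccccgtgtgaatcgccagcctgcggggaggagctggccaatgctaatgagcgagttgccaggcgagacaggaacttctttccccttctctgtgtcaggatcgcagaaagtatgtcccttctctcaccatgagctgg
ARHGAP21: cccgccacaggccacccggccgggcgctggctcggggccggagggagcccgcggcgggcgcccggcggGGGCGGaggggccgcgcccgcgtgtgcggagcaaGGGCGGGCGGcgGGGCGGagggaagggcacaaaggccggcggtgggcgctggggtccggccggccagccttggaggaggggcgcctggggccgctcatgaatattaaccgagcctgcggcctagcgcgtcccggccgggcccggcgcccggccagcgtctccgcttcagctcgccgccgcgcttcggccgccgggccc
ARHGAP42: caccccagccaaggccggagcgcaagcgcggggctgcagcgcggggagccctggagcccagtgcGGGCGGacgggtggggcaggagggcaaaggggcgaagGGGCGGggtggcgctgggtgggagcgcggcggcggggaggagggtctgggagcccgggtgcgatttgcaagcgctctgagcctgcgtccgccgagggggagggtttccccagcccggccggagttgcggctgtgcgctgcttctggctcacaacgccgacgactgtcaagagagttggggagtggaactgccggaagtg
ARHGAP11A: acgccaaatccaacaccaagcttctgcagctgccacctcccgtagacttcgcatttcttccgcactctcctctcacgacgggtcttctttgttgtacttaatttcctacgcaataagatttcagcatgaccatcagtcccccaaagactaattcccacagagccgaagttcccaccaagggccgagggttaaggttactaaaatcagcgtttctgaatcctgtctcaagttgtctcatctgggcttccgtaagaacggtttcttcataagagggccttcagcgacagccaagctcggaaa
ARHGAP19: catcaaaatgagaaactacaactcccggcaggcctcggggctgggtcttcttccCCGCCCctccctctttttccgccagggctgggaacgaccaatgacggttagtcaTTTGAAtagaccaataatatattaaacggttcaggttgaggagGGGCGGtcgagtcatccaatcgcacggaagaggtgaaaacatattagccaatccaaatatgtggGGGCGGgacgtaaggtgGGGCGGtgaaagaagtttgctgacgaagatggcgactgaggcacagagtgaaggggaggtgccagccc
The windows of ARHGAP10, ARHGAP21 and ARHGAP42 were rich in G and C, at 74.3%, 82.0% and 73.0%, against a median of 58.7% over 35116 windows of all genes. That of ARHGAP18 was 57.0% and that of ARHGAP11A 49.3%. All 4 windows of the genes with the large falls held the GC box, 2 of the copies in ARHGAP10 and 2 in ARHGAP21 overlapping each other, and the ARHGAP11A window held none of the marked motifs. The window shown for ARHGAP19 held 1 CHR element beside 4 GC boxes, and its window 2, not shown, was at 43.0% and held none of the marked motifs.

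RefSeq gave windows for 19 of the 21 members, 31 in all. The GC box was present in 61.3% of them and in 45.0% of all windows. The E2F sites were present in 3.23% against 3.31%, the CHR element in 12.9% against 15.2%, the E-box CACGTG in 6.45% against 7.26%, the forkhead motif GTAAACA in 6.45% against 3.42% and CCAAT in 29.0% against 34.6%. The CArG box of serum response factor was present in 0 of the 31 and in 1.29% of all windows. These are matches of letters on either strand, not sites, and nothing about a factor follows from them.

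The family as a whole had no common direction. Of the 21 members, 11 (52.4%) passed an adjusted p of 0.05 by limma, beside 29.7% of all genes tested. Of these, 5 were higher, beside 13.1% of all genes, and 6 were lower, beside 16.6%. Groups did not overlap for 16 of the 21 members and for 14 of the 19 with at least 10 reads in a library, beside 65.3% of all genes. The 16 include ARHGAP6 and ARHGAP28, which held at most 1 read in any library. The median log2 difference of the members was 0.07, beside -0.03 over all genes, and it was 0.04 over the 19 members with at least 10 reads in a library. Centring each library on its median, which moved the median of all genes to 0.18, changed the split of the members to 8 higher and 5 lower, and the share of higher genes among all calls from 44% to 69.1%. No call was kept when any 1 of the 4 libraries was left out, which leaves 1 library in a group. The 11 members kept their direction each time. With all libraries, 13 members had an unadjusted p under 0.05 by limma, beside 7128 of all 16945 genes. With no filter on low values, the calls of ARHGAP9, ARHGAP11A, ARHGAP15, ARHGAP19, ARHGAP25 and ARHGAP27 were lost, and with no variance trend those of ARHGAP9, ARHGAP15, ARHGAP19 and ARHGAP25.

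**Figure D1:**
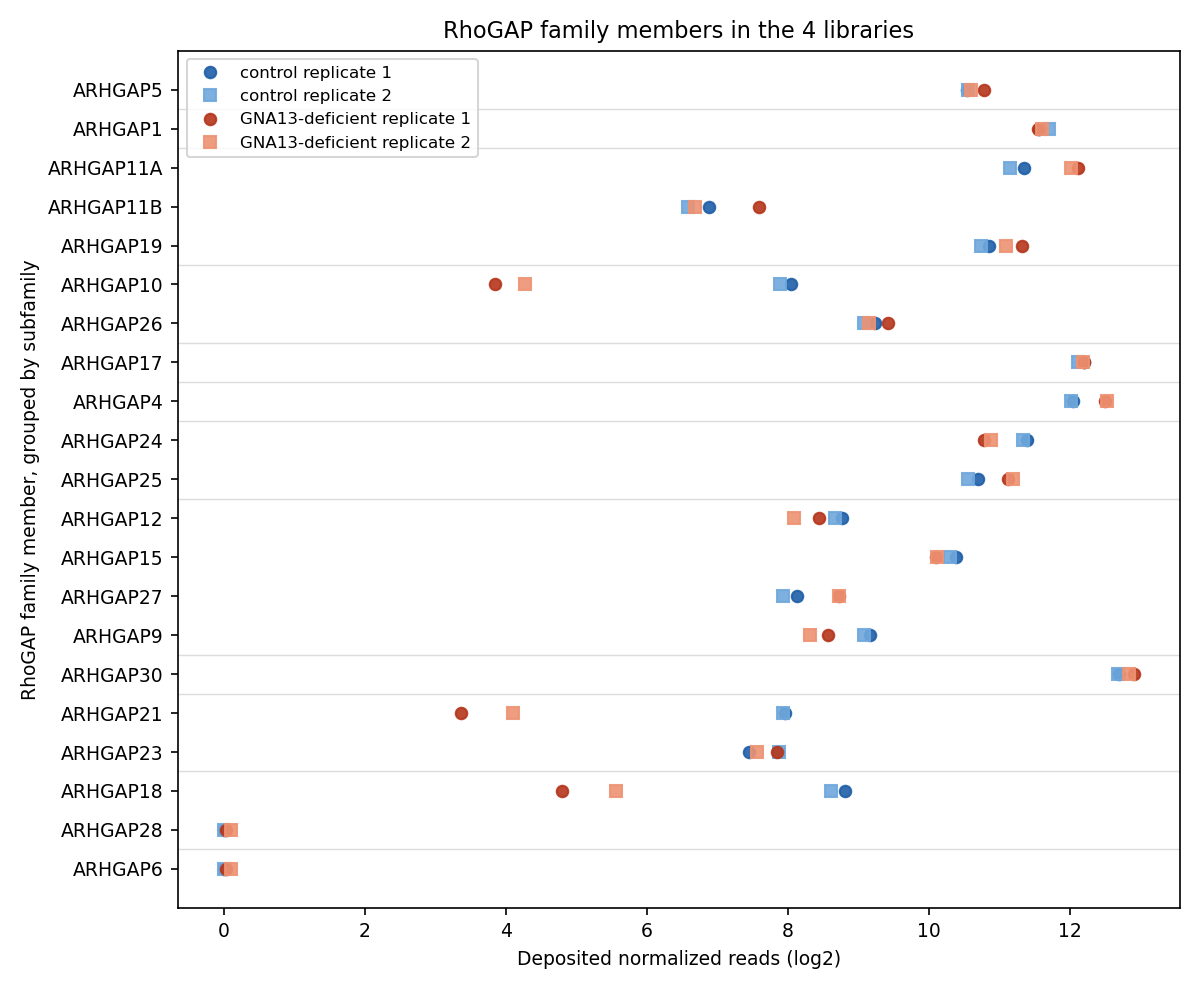
Log2 normalized reads (x axis) of each of the 21 members (y axis, grouped by subfamily) in the 2 libraries labelled control (blue) and the 2 labelled GNA13-deficient (red), 1 point per library. ARHGAP10, ARHGAP18 and ARHGAP21 lie far apart between genotypes, and the other members differ by less than 1.

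Per length, the family was carried by a few genes, and the sum was a little higher in the libraries labelled GNA13-deficient. Summed over the members, normalized reads per kilobase of the longest transcript were 7612 and 7386 in the control libraries and 8506 and 8320 in those labelled GNA13-deficient. The 3 highest members made up 46.9% and 48.2% of this sum in the control libraries and 50% and 50.3% in the others. In the control libraries the order of the mean level per kilobase was ARHGAP30 (1359), ARHGAP4 (1238), ARHGAP1 (936), ARHGAP17 (922), ARHGAP24 (569), ARHGAP25 (532), ARHGAP15 (437), ARHGAP11A (414) and ARHGAP19 (322). The values of ARHGAP1 and ARHGAP17 overlapped between these libraries, as did no other pair of neighbours in this order down to ARHGAP25. In those labelled GNA13-deficient, ARHGAP4 (1734) stood above ARHGAP30 (1545), and ARHGAP11A (730) stood above ARHGAP24 (394). ARHGAP10, ARHGAP18 and ARHGAP21 together gave only 2.20% and 2.04% of the sum in the control libraries and 0.11% and 0.19% in the others, so the largest changes concerned members of low level.

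ARHGAP10, also known as GRAF2, has a membrane-bending BAR domain and acts on Cdc42 and RhoA. Log2 values were 8.04 and 7.90 in the control libraries and 3.85 and 4.28 in those labelled GNA13-deficient, which correspond to 259, 242, 14 and 18 reads. Both control libraries were far above both others. The difference was -3.91 (SE 0.25, limma adjusted p = 0.00157), a value 15-fold lower. The gene lies at chr4:148653214-148993927 in GRCh37.

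ARHGAP42, or GRAF3, belongs to the same BAR-domain group and is known as a RhoA-directed GAP of smooth muscle that lowers blood pressure. It is listed as FLJ32810, with log2 values of 7.43 and 7.08 in the control libraries and 3.21 and 3.11 in the others, from 169, 137, 9 and 8 reads. The genotypes did not overlap, and the difference was -4.09 (SE 0.28, limma adjusted p = 0.00175). TMEM133, a row of its own that RefSeq lists as a synonym of ARHGAP42, went the same way, with 37, 42, 2 and 3 reads and a difference of -3.94 (SE 0.40, limma adjusted p = 0.00376). ARHGAP26, the first GRAF protein, did not follow. Its log2 values were 9.24 and 9.09 against 9.43 and 9.15, which overlap, with a difference of 0.13 (limma adjusted p = 0.486).

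ARHGAP21 is a large RhoGAP with a PDZ domain, known from the Golgi apparatus and cell junctions, where it acts on Cdc42 and RhoA. It had the largest difference of the members. The log2 values were 7.96 and 7.94 in the control libraries and 3.36 and 4.11 in those labelled GNA13-deficient, from 245, 249, 10 and 16 reads. The control libraries agreed within 0.03 and the others were 0.75 apart, without overlap between genotypes. The difference was -4.22 (SE 0.32, limma adjusted p = 0.00209), 18.6-fold lower, for a gene at chr10:24872538-25012816 in GRCh37. Its PDZ-domain relative ARHGAP23 had log2 values of 7.45 and 7.88 against 7.85 and 7.56, with a difference of 0.04 (95% interval -0.48 to 0.56).

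ARHGAP18 is a RhoA-directed GAP that shapes the cell edge and cell polarity. ARHGAP18 had log2 values of 8.81 and 8.61 in the control libraries and 4.79 and 5.57 in those labelled GNA13-deficient, from 440, 397, 27 and 44 reads. The groups were well apart, with a difference of -3.53 (SE 0.30, limma adjusted p = 0.0024), 11.5-fold lower. It lies at chr6:129897277-130031322 in GRCh37. Its relative ARHGAP28 was at 0 reads in the control libraries and at 1 read in each of the others, and so was ARHGAP6, so neither gives a fold. In control replicate 2 no gene is listed at 1 read, so that a 0 there can stand for 1 read.

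**Figure D2:**
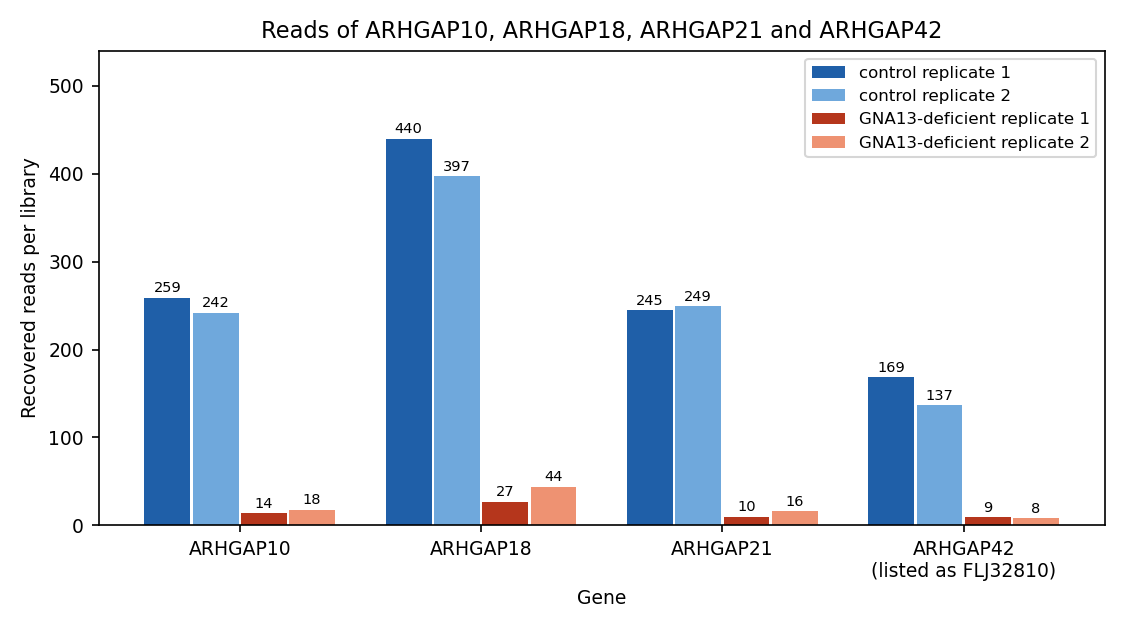
Recovered whole reads per library (y axis, linear from 0) for ARHGAP10, ARHGAP18, ARHGAP21 and ARHGAP42 in the control (blue) and GNA13-deficient (red) libraries, 1 bar per library with its count above it. Control bars stand at 137 to 440 reads and the bars of the other libraries at 8 to 44.

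Falls of this size were uncommon but not confined to RhoGAP genes. Among all genes tested, 2.57% passed the threshold, fell by 3 or more on the log2 scale and had at least 10 reads in a library, and 0.0826% rose by as much. Of the genes that fell so and had a mean of at least 100 reads in the control libraries, 201 in all, the middle 50% differed by -3.89 to -3.36, with a median of -3.65. ARHGAP10, ARHGAP18, ARHGAP21 and ARHGAP42 are 4 of these. ARHGAP18 lies within that range, and the other 3 fell by slightly more. The 3 members stayed lower by 3 or more when any 1 library was left out.

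Several markers of other blood cells were lower in the same libraries as these 4 genes. Summed over the list, T cell markers were at 122 to 177 normalized reads in the control libraries and at 5.4 to 13.3 in the others, and myeloid markers at 228 to 242 and 26.9 to 27.7. In the T cell list CD4 and CD8A fell, while CD3D and CD3E were at 0 in every library and CD3G was at 1 read in 1 library. In the myeloid list LYZ and ITGAM fell, CD14 and CSF1R did not pass the test, and FCGR3A was at 0 in every library. Epithelial markers went the other way, at 38.7 to 45.3 and 94.4 to 106.5, with KRT8, KRT18 and KRT19 at 0. Fibroblast markers summed to 3.9 to 9.2 and 8.6 to 17.4, and plasma cell markers to 19323 to 19647 and 15505 to 15837. The libraries came from a cultured lymphoma line derived from a single-cell clone, not from a tissue. The part of other cells in the falls of the RhoGAP genes was not tested, and in bulk RNA fewer cells of a type and less RNA per cell cannot be told apart.

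**Figure D3:**
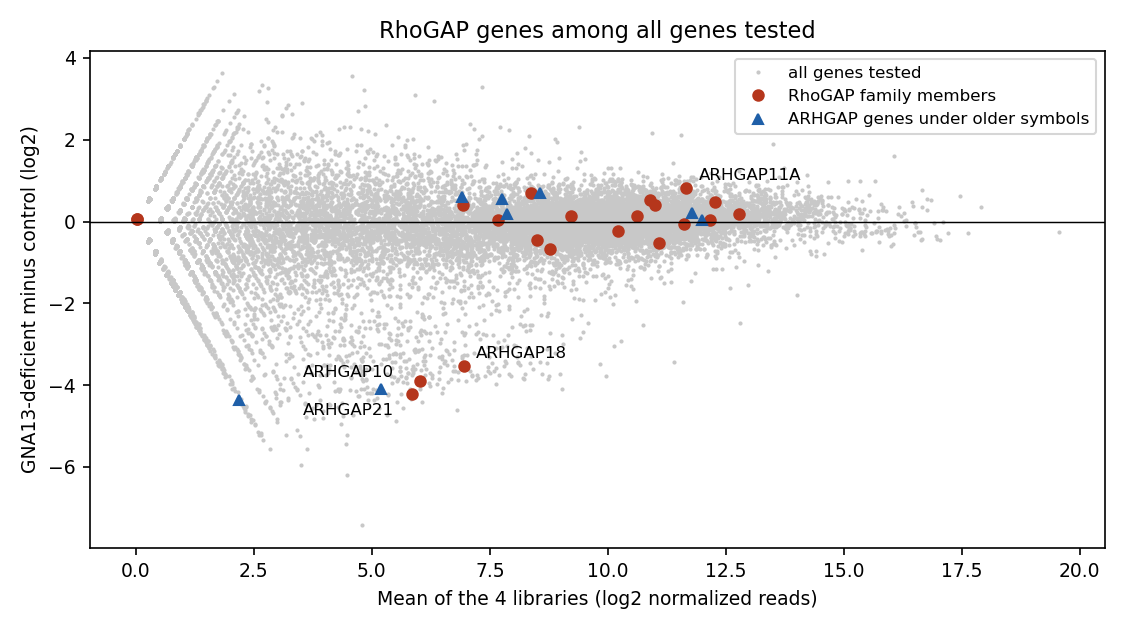
Log2 difference, GNA13-deficient minus control (y axis), against the mean log2 normalized reads of the 4 libraries (x axis) for all 16945 genes tested (grey), the 21 members (red circles) and the 8 tested ARHGAP genes under older symbols (blue triangles). Most RhoGAP genes lie near 0, and ARHGAP10, ARHGAP18 and ARHGAP21 lie between -4.22 and -3.53 with other genes around them.

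The nearest tested genes on either side of ARHGAP10, ARHGAP18, ARHGAP21 and ARHGAP42 varied, and many of them lay far away. For each, the 3 nearest tested genes with at least 10 reads on either side were read from GRCh37 positions, beside 16.6% of all genes lower and 13.1% higher. Their distances ran from 6.0 kb to 4481.7 kb (MAML2, from ARHGAP42). AKAP7 lay 1425.3 kb from ARHGAP18, and MSRB2 and THNSL1 lay 1461.6 and 292.7 kb from ARHGAP21. None of the 6 around ARHGAP10 passed the threshold, with differences from -0.26 to -0.04, among them NR3C2 at a distance of 6.0 kb with -0.19. Around ARHGAP42, 2 of 6 were lower and 4 did not pass, with differences from -1.05 to 0.22. Around ARHGAP18, 4 of 6 were lower and 2 did not pass, from -2.06 (AKAP7) to 0.42. Around ARHGAP21 the neighbours were mixed. MSRB2 (-3.55) and THNSL1 (-3.94) were lower by a similar amount, while OTUD1 (0.61), which lies between MSRB2 and ARHGAP21, and PDSS1 (0.56) were higher and the other 2 did not pass. These neighbours were chosen by position alone.

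**Figure D4:**
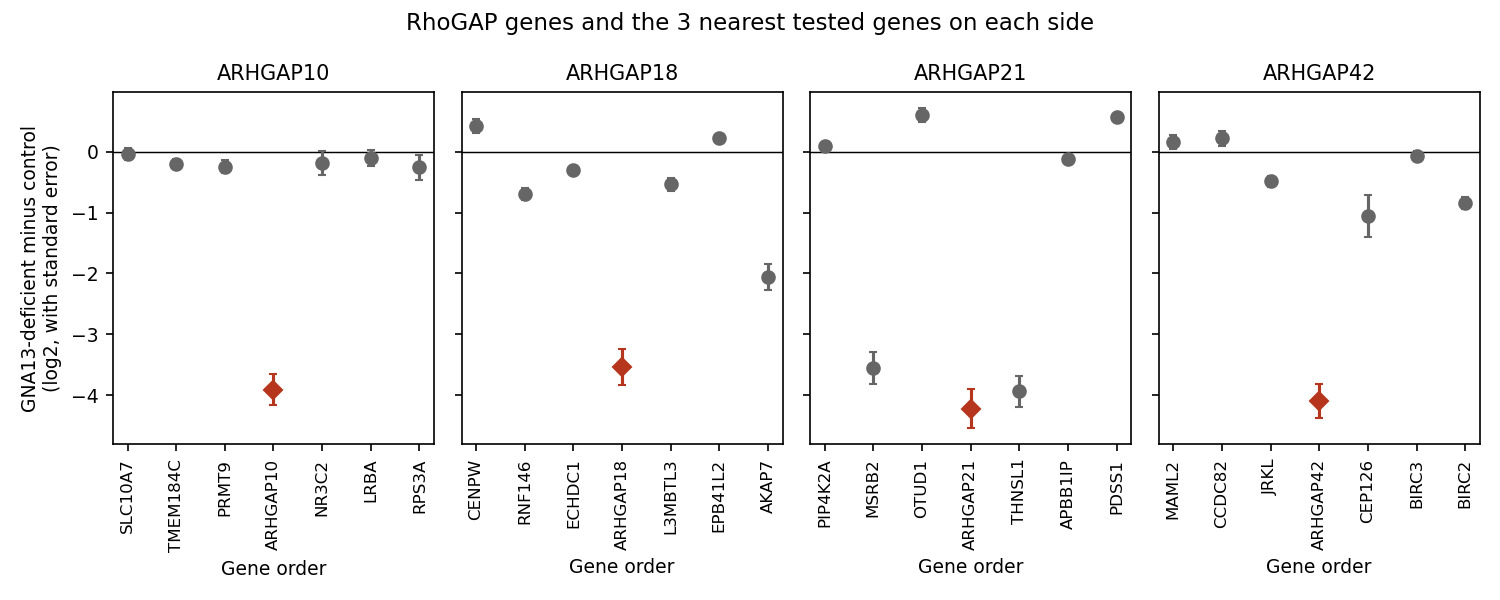
Log2 difference, GNA13-deficient minus control, with its standard error (y axis), for ARHGAP10, ARHGAP18, ARHGAP21 and ARHGAP42 (red diamonds) and the 3 nearest tested genes on each side in gene order (grey circles). Only MSRB2 and THNSL1, at 1461.6 and 292.7 kb from ARHGAP21, come close to the fall of the RhoGAP gene in their panel.

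ARHGAP11A is a RhoA-directed GAP whose level follows the cell cycle and which acts in mitosis, and it had the largest rise of the members. Its log2 values were 11.34 and 11.15 in the control libraries and 12.12 and 12.01 in those labelled GNA13-deficient. Both of the latter were above both controls, with a difference of 0.82 (SE 0.09, limma adjusted p = 0.00396). The gene lies at chr15:32907345-32932142 in GRCh37. ARHGAP11B, its partial human-specific copy on the same chromosome, had log2 values of 6.88 and 6.59 against 7.58 and 6.69, which overlap, with a difference of 0.40 (SE 0.34, limma adjusted p = 0.431). Of the 50-base windows in the ARHGAP11A transcript, 17.0% are also found in ARHGAP11B transcripts, and 27.2% the other way, so reads could be split between the pair and the ARHGAP11B value is uncertain. No other pair of members shared a window.

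ARHGAP19, the other mitotic member, acts on RhoA and is abundant in blood cells. Its log2 values were 10.86 and 10.74 in the control libraries and 11.32 and 11.10 in the others, without overlap. The difference was 0.41 (SE 0.09, limma adjusted p = 0.0314), and the call was lost with voom weights (limma adjusted p = 0.0508).

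Most listed genes that work with RhoA at cell division rose too. In a list of 10 cytokinesis regulators, 9 were higher and 0 lower by limma, beside 13.1% and 16.6% of all genes, with a median difference of 0.58 beside -0.03. PRC1, a microtubule bundler of the central spindle, was the exception at -0.10 (limma adjusted p = 0.296). The largest were AURKB, a mitotic kinase, at 1.11 (limma adjusted p = 0.00128), and CEP55, an abscission protein, at 0.90 (limma adjusted p = 0.00339). RACGAP1, itself a RhoGAP of the central spindle, had log2 values of 11.03 and 10.96 against 11.55 and 11.55. RACGAP1 and CIT also stand in other lists counted here.

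ARHGAP4 belongs to the F-BAR group and is abundant in blood cells. Values on the log2 scale were 12.04 and 12.01 in the control libraries and 12.50 and 12.52 in those labelled GNA13-deficient. Libraries of 1 genotype agreed within 0.03, and the difference was 0.49 (SE 0.05, limma adjusted p = 0.00376). ARHGAP45, an F-BAR relative of blood cells listed as HMHA1, had values of 11.97 and 11.99 against 12.04 and 11.99, with a difference of 0.03 (95% interval -0.10 to 0.17).

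ARHGAP24 and ARHGAP25, a pair of Rac-directed GAPs with a PH domain, moved in opposite directions. ARHGAP24, also known as FilGAP, is a filamin-binding suppressor of Rac at the cell edge. Its log2 values were 11.39 and 11.34 in the control libraries and 10.78 and 10.88 in the others, a fall of -0.53 (SE 0.06, limma adjusted p = 0.00488). ARHGAP25 is a leukocyte GAP that restrains phagocytosis, and its log2 values were 10.69 and 10.56 in the control libraries and 11.12 and 11.20 in the others, a rise of 0.53 (SE 0.07, limma adjusted p = 0.00693). Neither overlapped between genotypes. The sum of the pair was 4094 to 4326 normalized reads in the control libraries and 3984 to 4228 in the others, so the 2 ranges overlapped.

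The group of ARHGAP9, ARHGAP12, ARHGAP15 and ARHGAP27, RhoGAPs that also carry a PH domain and mostly act on Rac and Cdc42, was divided too. ARHGAP9, a leukocyte gene, fell. Its log2 values were 9.16 and 9.08 in the control libraries and 8.57 and 8.32 in the others, without overlap, with a difference of -0.68 (SE 0.12, limma adjusted p = 0.0141). It overlaps MARS on the opposite strand, which was higher by 0.30. ARHGAP15, a Rac GAP of leukocytes, had values of 10.38 and 10.30 against 10.10 and 10.12. The difference of -0.23 (SE 0.06, limma adjusted p = 0.0492) stood at the threshold, and the call was lost in 11 of 15 alternative settings.

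ARHGAP27, or CAMGAP1, is known from endocytosis and rose. Log2 values were 8.13 and 7.93 in the control libraries and 8.72 and 8.72 in the others, and the difference was 0.69 (SE 0.11, limma adjusted p = 0.012). SH3D20, an old row with the same Entrez identifier, held only 8, 6, 4 and 2 reads and did not pass the test. ARHGAP12, which limits Rac at sites of phagocytosis, had values of 8.77 and 8.67 against 8.45 and 8.09, and its difference of -0.45 did not pass (limma adjusted p = 0.0776), although the groups did not overlap.

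**Figure D5:**
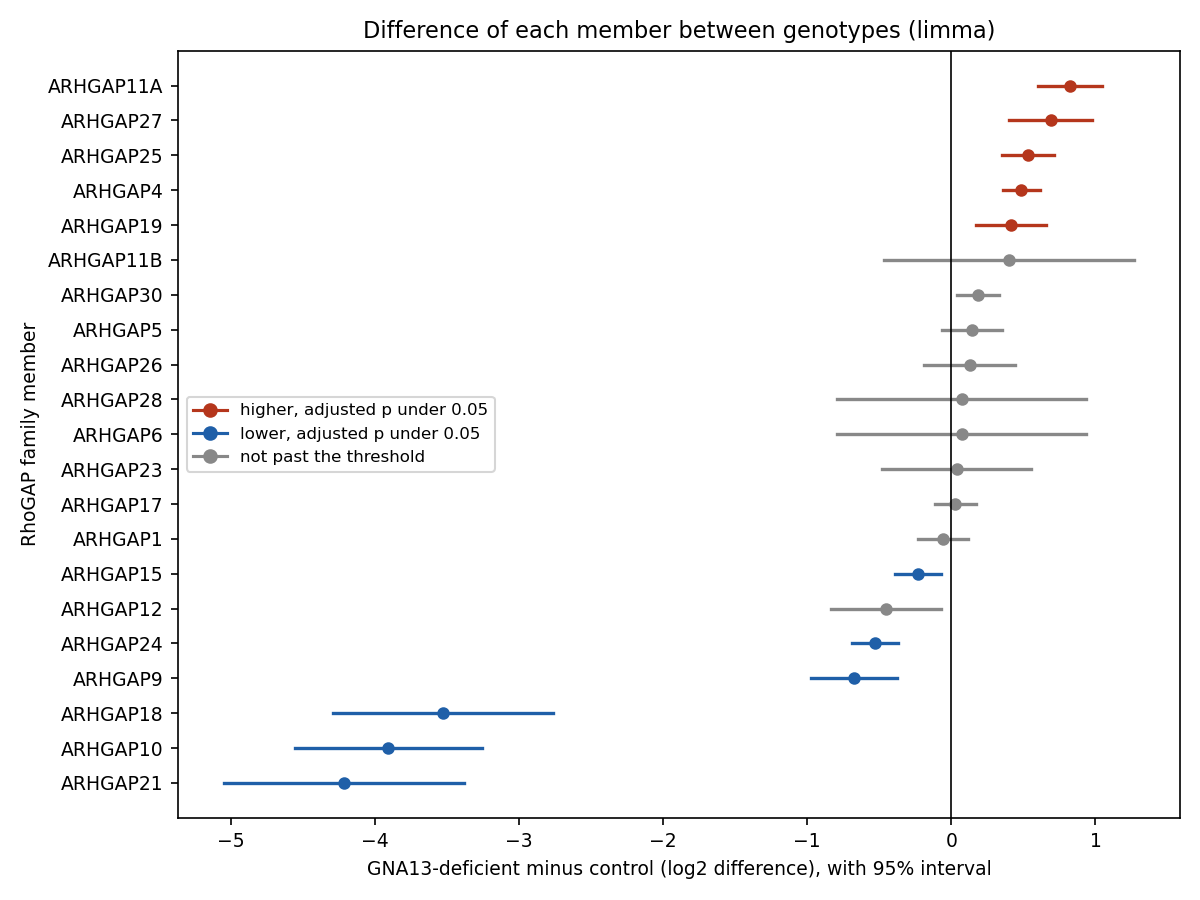
Log2 difference, GNA13-deficient minus control, with its 95% interval from limma (x axis) for the 21 members (y axis, in order of size). The 5 members in red were higher and the 6 in blue lower at an adjusted p under 0.05, and the 10 in grey did not pass.

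The broadly expressed RhoGAPs differed little. ARHGAP1, or p50RhoGAP, a GAP for Cdc42 and RhoA with a Sec14 domain, had log2 values of 11.56 and 11.70 against 11.55 and 11.60, with a 95% interval of the difference from -0.23 to 0.12. ARHGAP17, a BAR-domain GAP for Cdc42 and Rac, had 12.20 and 12.12 against 12.20 and 12.18, with an interval from -0.12 to 0.17. Both pairs overlapped, and both intervals lie within 0.25 of 0.

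The p190 RhoGAPs are main terminators of RhoA signaling in many cells. ARHGAP5, or p190B, had values of 10.54 and 10.55 in the control libraries and 10.79 and 10.60 in the others, a difference of 0.14 (limma adjusted p = 0.248). ARHGAP35, or p190A, is listed as GRLF1 and had 11.69 and 11.70 against 11.99 and 11.80, a difference of 0.20 (limma adjusted p = 0.127). In both genes the libraries labelled GNA13-deficient were above the controls, by less than the test could call.

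ARHGAP30, a Rac1 and RhoA GAP of blood cells and the member with the highest level per length in the control libraries, had values of 12.70 and 12.68 against 12.91 and 12.83. The difference of 0.18 (95% interval 0.04 to 0.33) did not pass after adjustment (limma adjusted p = 0.0691). Its relative ARHGAP32, listed as RICS and known from neurons, had 21 and 20 reads in the control libraries and 0 in both others. Set against a floor of 3 reads per library it was at least 6.1-fold lower (limma adjusted p = 0.00233). ARHGAP44, a BAR-domain relative of ARHGAP17 listed as RICH2, rose from 8.22 and 8.20 to 8.85 and 8.99, by 0.71 (SE 0.10, limma adjusted p = 0.00759). Of the other ARHGAP genes under older symbols, ARHGAP31, ARHGAP33 and ARHGAP39 did not pass, with differences of 0.54, 0.20 and 0.60. ARHGAP31, a GAP for Cdc42 and Rac1 listed as CDGAP, stood near the threshold (limma adjusted p = 0.0531) and passed with a filter of 10 reads, quantile normalization, centring, both pseudocounts, a robust variance prior and the replicate block (limma adjusted p = 0.0121 to 0.0452). ARHGAP39, listed as KIAA1688, passed with the first 3 of these. Over the 8 that could be tested, 1 was higher and 2 were lower, beside 13.1% and 16.6% of all genes.

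Some of the small GTPases that RhoGAPs act on differed and others did not pass the test. RHOA mRNA was 14.56 and 14.70 in the control libraries and 14.58 and 14.68 in the others, with a 95% interval of the difference from -0.22 to 0.22. CDC42 differed by -0.05 (limma adjusted p = 0.758) and RAC1 by -0.29 (limma adjusted p = 0.0401). RAC2, the Rac of blood cells, rose from 11.60 and 11.72 to 12.43 and 12.44, by 0.77 (SE 0.06, limma adjusted p = 0.00224). RHOH, a GTPase-deficient protein of lymphocytes, fell by 0.68 on the log2 scale (limma adjusted p = 0.00283), and RHOC fell by 1.5 on the log2 scale (limma adjusted p = 0.00204).

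Further proteins with a RhoGAP domain were counted as well, in a list that also holds HMHA1 (ARHGAP45), counted above. Of 32 listed, 29 could be tested, and 4 were higher and 9 lower, beside 13.1% and 16.6% of all genes. The largest falls from over 10 reads included CHN2, a Rac GAP, at -3.50 (limma adjusted p = 0.0034), and OCRL, an inositol phosphatase with a RhoGAP-like domain, at -3.41 (limma adjusted p = 0.0016). BCR, a Rac GAP that is also the fusion partner in chronic myeloid leukemia, had log2 values of 12.84 and 12.90 against 11.73 and 11.69, a difference of -1.16 (SE 0.05, limma adjusted p = 0.00102). DEPDC1B, a RhoGAP-like protein of dividing cells, had 9.78 and 9.79 against 10.79 and 10.87, a difference of 1.04 (SE 0.06, limma adjusted p = 0.00134).

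On the activating side, 2 of the 3 RhoGEFs that Gα13 engages were lower and 0 higher, beside 16.6% and 13.1% of all genes. ARHGEF12 had log2 values of 11.02 and 11.20 in the control libraries and 9.15 and 9.05 in the others, a difference of -2.01 (SE 0.09, limma adjusted p = 0.000926), and ARHGEF11 fell by 1.63 on the log2 scale (limma adjusted p = 0.00157). ARHGEF1, the RhoGEF through which Gα13 acts in B cells, differed by 0.15 (limma adjusted p = 0.0856). Of 12 RhoA effector kinases and formins, 4 were higher and 1 lower, beside 13.1% and 16.6% of all genes. The formin DIAPH3 rose by 1.31 (limma adjusted p = 0.00119) and citron kinase, CIT, by 0.67 (limma adjusted p = 0.00594). The kinase PKN3 was the gene that fell, by -1.83 (limma adjusted p = 0.0142). Of 3 RhoGDI proteins 2 could be tested, and ARHGDIA was higher by 0.30 (limma adjusted p = 0.0437).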

How the data were processed

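Poly(A) RNA of 4 libraries was sequenced with a stranded kit. Alignment to hg19 was done by the authors with STAR, and the deposited table gives normalized reads per gene on a log2 scale (unit "other" because 1 row of library totals is linear). The counting tool's role and the normalization are not given in the sources used here, except that the submitters' processing notes name HTSeq. The labels and the paper differ on read length, on which these values do not depend. Low values step in whole reads, so that reads behind a value could be given. All values up to 400 reads came out whole within 0.1 read plus an allowance for the rounding of the deposited values, which grows with the reads.

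Genes above 0 in at least 2 libraries were compared with limma 3.58.1 in R 4.3.3 (lmFit, eBayes with a mean-variance trend) on the deposited values, with genotype as the only term, 2 residual degrees of freedom and Benjamini-Hochberg adjustment over all genes tested (threshold 0.05). The study's methods name no gene-level test. No pseudocount was added, and SE is the standard error of the log2 difference. Differences are on the log2 scale as deposited, and folds are these differences turned into linear ratios. A floor of 3 reads per library was used where a group was at 0. Positions are GRCh37 and lengths the longest GENCODE transcript. On simulated data for 16510 genes of this comparison, 77 of 100 genes changed by 1 and 97 of 100 changed by 3 on the log2 scale were called, with 0 false calls. The simulated spread between duplicates was a set value, not one estimated from these libraries. Far fewer genes were changed than were called here, and none of the changed genes had very few reads. The simulation therefore checks that the fit runs as intended and does not give the rate of false calls in these data.

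The members and lists were chosen with earlier results of these data known. Values in every library are given for called members with at least 10 reads (up to 7 in each direction), for ARHGAP1, ARHGAP4, ARHGAP5, ARHGAP9, ARHGAP11A, ARHGAP15, ARHGAP17, ARHGAP18, ARHGAP19, ARHGAP25, ARHGAP30, ARHGAP35 and ARHGAP45, and for the 2 most changed genes of each pathway list with a mean at or above the median, with RHOA, RAC1, RAC2, CDC42 and RHOH. Other genes, among them ARHGAP32, ARHGAP42, ARHGAP44, RACGAP1, the Gα13 RhoGEFs and single marker genes, were named after their values were seen. Alternatives were other filters, scalings, pseudocounts of 1 and 10, variance priors, voom weights, a replicate block and leaving out each library. Duplicates differed beyond counting noise, with a mean chi-square per gene of 2.49 and 2.42 within genotypes. Some results are not reported here.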

Additional observations from a re-analysis of the deposited data

How the results depend on the processing

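The falls of ARHGAP10, ARHGAP18 and ARHGAP21 stayed past the threshold in every alternative that kept all 4 libraries and tested them, with differences of -4.12 to -3.28, -3.92 to -3.14 and -4.59 to -3.45 over all alternatives. A filter at the median level left them untested. With 1 library left out, the counts of members higher and lower were 0 and 0, as were those of every pathway list given here, and the median ranged from -0.011 to 0.071. These counts rest on 1 residual degree of freedom.

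Members higher numbered 1 with no filter, 8 with median centring and 3 with no variance trend. The members' median was 0.14 with the median filter, 0.13 with quantile normalization, 0.28 with centring, 0.13 with a pseudocount of 1 and 0.12 with a pseudocount of 10. All genes called numbered 5037 of 16945. They numbered 1999 of 25066 with no filter, 6235 of 16945 with centring and 2718 of 16945 with no trend. Of the calls in each setting, 40.8% were higher with no filter, 69.1% with centring and 36.3% with no trend. With the median filter, 54.6% of calls were higher. The counts of members and lists are to be read beside these shares. With no filter, other RhoGAP proteins lower numbered 4, RhoGDI proteins higher 0, effectors higher 1 and lower 0, and cytokinesis regulators higher 2. With no trend, other RhoGAP proteins lower numbered 4, RhoGDI proteins higher 0, effectors higher 2 and cytokinesis regulators higher 5. With the median filter, other RhoGAP proteins lower numbered 5 and effectors lower 0. With centring, other RhoGAP proteins higher numbered 9 and RhoGDI proteins higher 2, and with quantile normalization RhoGDI proteins higher numbered 0. The cause was not tested, except that fewer genes enter the median filter.

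Some members that did not pass changed sign. ARHGAP1 was 0.15 with centring, ARHGAP17 was -0.051 with quantile normalization and -0.020 with voom, ARHGAP23 was -0.018 with voom, and HMHA1 (ARHGAP45) was -0.034 with quantile normalization and -0.017 with voom. With 1 library left out, differences ranged from -0.127 to 0.012 for ARHGAP1, from -0.047 to 0.847 for ARHGAP11B, from -0.013 to 0.070 for ARHGAP17, from -0.176 to 0.250 for ARHGAP23 and from -0.011 to 0.264 for ARHGAP26. No called gene changed sign.

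With the replicate number as a block, 6 members were higher and 7 lower, ARHGAP30 (limma adjusted p = 0.0188) and ARHGAP12 (limma adjusted p = 0.027) joining, ARHGAP31 (CDGAP, limma adjusted p = 0.0407) was also called, RhoGDI proteins higher numbered 2, and 6616 genes were called. Same-numbered libraries deviated together (r = 0.453 over 8473 genes), but they share only a number, since nothing in the labels pairs them.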
